A study of Mus musculus with 12 samples.

Results

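The mitochondrial chromosome of the mouse was followed in whole-heart RNA from 6 wild-type (WT) mice and 6 mice with the Lemd2 p.L13R knock-in (KI). Its genes were taken as every row of the gene table that lies on the chromosome holding ND1, COX1, CYTB and mt-Rnr2, which gave 37 of 39331 rows. They are 13 messenger RNAs, 2 ribosomal RNAs and 22 transfer RNAs. All 12 mice were C57BL/6N and 9 months old, and the labels give no treatment. The knock-in exchanges leucine for arginine at residue 13 of LEMD2, which sits in the membrane lining the inside of the nuclear envelope, and the comparison asks how that change alters heart gene expression. The labels name 1 knock-in line and give neither its zygosity nor the sex of the animals, and they do not say which part of the heart was taken. The sequencing kit keeps strand and draws RNA by its poly(A) tail. The titles of the mice called KI 1 and KI 2 join a pair of numbers by a plus sign, ahead of a further number. The titles of KI 3, KI 4 and KI 5 share an age tag and carry consecutive numbers. The title of KI 2 also ends in the tag old, and that of KI 6 in the tag new. What these marks stand for is not given.

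Mitochondrial DNA is a closed circle that is transcribed almost end to end from promoters in its control region, by a polymerase that serves mitochondria alone. One long transcript carries both ribosomal RNAs, most transfer RNAs and all messenger RNAs except ND6, which is read from the opposite strand together with the remaining transfer RNAs. Transfer RNAs punctuate these transcripts, and their excision at both ends releases the messenger and ribosomal RNAs between them. Most of the messenger RNAs then receive a poly(A) tail, whereas mature transfer RNAs do not, and in human cells ND6 is described as lacking a stable tail. Heart muscle is dense with mitochondria, and their messenger RNAs encode the membrane cores of respiratory complexes I, III, IV and V.

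Transfer RNAs stand out in the results below, so the 6 of them with the largest or most variable counts are shown here from the GENCODE M21 transcripts of build GRCm38. All 6 lie on the + strand, the strand that reads like the long transcript. The 37 genes have the same start, end and strand in GENCODE as in the deposited table. Capitals mark the anticodon, the triplet that reads the codon on the messenger RNA. TrnI (isoleucine) lies at chrM:3706-3774, TrnD (aspartate) at chrM:6942-7011 and TrnG (glycine) at chrM:9391-9458. TrnW (tryptophan) lies at chrM:4950-5016, TrnL1 (one of the leucine transfer RNAs) at chrM:2676-2750 and TrnM (methionine) at chrM:3845-3913.
TrnI: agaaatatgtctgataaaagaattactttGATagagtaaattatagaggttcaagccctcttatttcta
TrnD: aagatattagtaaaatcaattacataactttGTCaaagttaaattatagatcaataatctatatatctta
TrnG: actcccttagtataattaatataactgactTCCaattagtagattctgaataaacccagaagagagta
TrnW: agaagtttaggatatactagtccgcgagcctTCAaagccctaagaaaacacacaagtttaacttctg
TrnL1: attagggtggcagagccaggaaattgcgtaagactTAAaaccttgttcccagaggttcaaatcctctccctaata
TrnM: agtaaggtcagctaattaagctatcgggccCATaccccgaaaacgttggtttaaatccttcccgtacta

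The genes are packed so tightly that 11 of the 37 overlap another on the same strand. ATP8 and ATP6 share 43 bases, ND4L and ND4 share 7, ND1 and TrnI share 2, ND2 and TrnW share 2, and ATP6 and COX3 share 1, as do TrnS2 and TrnL2. The stretch common to ATP8 and ATP6 is printed because reads over it were divided between the genes; it spans chrM:7927-7969, + strand, and capitals mark the first codon of ATP6.
ATP8 and ATP6: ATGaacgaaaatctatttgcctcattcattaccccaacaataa
Reads over such overlaps, and reads with further alignments such as nuclear copies of mitochondrial DNA, were split as fractions per the file headers. Opposite-strand neighbours (TrnI with TrnQ, COX1 with TrnS1, ND5 with ND6) were counted by strand.

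The 12 libraries held 27.9 M to 44.6 M counts (1 M is 1000000), and KI 3, KI 4 and KI 5 were the shallowest with 27.9 M to 34.9 M. The mitochondrial chromosome supplied 34.0% to 40.4% of the counts of WT libraries and 30.9% to 33.9% of those of KI libraries, so the ranges did not overlap. All 10 ventricular cardiomyocyte markers were detected in every library, with a summed level of 51093 to 57918 CPM in WT and 45917 to 56078 CPM in KI. CPM are counts per 1000000, scaled by the TMM factors of edgeR. Of these 10 markers, 2 were lower in KI by the test used throughout (Tnni3 and Pln) and none was higher. Fibroblast markers were higher for 5 of 10, with a summed level of 824 to 1060 CPM in WT and 1029 to 1799 CPM in KI. Atrial markers summed to 40.6 to 383 CPM in WT and 202 to 2320 CPM in KI, and 2 of the 3 tested, Nppa and Dkk3, were higher. Nppa made up most of that sum, with a mean of 240.3 CPM in WT and 1091 CPM in KI. KI 6 stood apart with the atrial markers Myl4, Myl7 and Sln at 223, 145 and 52.4 CPM. Elsewhere these were at most 5.30, 0.426 and 0.200 CPM. Dkk3 was also highest in KI 6, at 64.4 CPM against at most 12.9, and Nppa less clearly, at 1835 against 1611 CPM. Bmp10 was not, at 0.109 CPM against up to 0.135. Ucp1, the defining marker of brown fat, was at 17.8 CPM in KI 6, against at most 0.0296 CPM elsewhere. The mural markers Myh11 and Tagln reached 116 and 79.5 CPM there, against at most 59.7 and 38.0, whereas Rgs5 and Kcnj8 were not highest in KI 6. None of the tested endothelial, mural, macrophage, lymphocyte or erythroid markers passed the threshold. Of all genes tested, 4.34% were lower and 4.41% higher. With scaling by library totals, 0 ventricular markers were lower, 8 fibroblast and 3 atrial markers were higher, and so were 4 of 7 macrophage and 1 of 6 mural markers. On that scaling 1.22% of all genes were lower and 18.8% higher.

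RNAs of the mitochondrial chromosome were lower in KI hearts, and those called differed from WT in 1 direction. Of the 32 genes with enough counts to test, 15 were lower in KI and 0 were higher by the edgeR quasi-likelihood test at an adjusted p of 0.05, where p-values were adjusted over all 15602 genes tested. Across those genes, 4.34% were called lower and 4.41% higher. The 15 were both ribosomal RNAs, 9 of 13 messenger RNAs and 4 of 17 tested transfer RNAs. The median log2 fold change of the 32 was -0.39, against 0.01 for all genes tested. At an unadjusted edgeR p of 0.05 the counts were 23 lower and 1 higher. That cut was passed by 4023 of all 15602 genes tested, in either direction. DESeq2 called 17 lower and 0 higher, beside 6.85% lower and 6.29% higher of all genes, and limma voom called 21 lower and 0 higher, beside 8.11% and 6.49%. In bulk tissue, fewer cells of a type and less RNA per cell cannot be told apart. The ventricular marker sums extended lower and the fibroblast sums higher in KI, as did the level of Nppa, whereas Myl4, Myl7 and Sln stayed low in every library but KI 6. The part of these in the result was not tested.

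In 11 of the 32 genes the highest KI library lay below the lowest WT library, which held for 2.21% of all genes tested. They were mt-Rnr1, mt-Rnr2, ND1, ND2, COX1, COX2, COX3, ATP6, ND4L, TrnI and TrnW. In each of the 13 messenger RNAs and both ribosomal RNAs, all 6 KI libraries lay below the WT mean. Scaling by library totals alone shifted log2 fold changes upward, by a median of 0.15 over all genes, and then 11 members were lower and 1, TrnS1, was higher, beside 1.22% lower and 18.8% higher of all genes. The 4 that were then no longer called were ND6, ND4L, TrnL1 and TrnM. With KI 1, KI 2 and KI 6 as the only KI libraries, 2 members were lower (mt-Rnr2 and TrnW, beside 0.138% of all genes lower and 0.426% higher). With KI 3, KI 4 and KI 5 alone, 16 were lower and 1 was higher, beside 7.41% and 4.96% of all genes. Without WT 2, or without WT 6, 8 members were lower, and without KI 6 the count was 14. The share of all genes called in these fits was not taken.

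**Figure D1:**
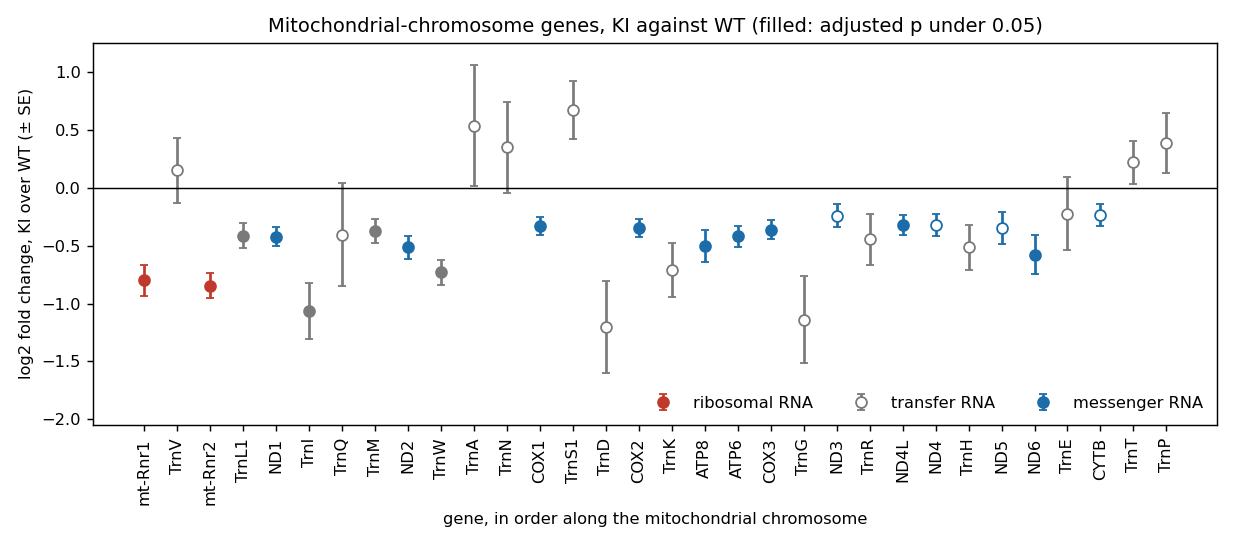
Log2 fold change, KI over WT, with its standard error, for the 32 tested genes in chromosome order; red marks ribosomal, grey transfer and blue messenger RNAs, and filled points have an adjusted p under 0.05. The 13 messenger RNAs lie between -0.58 and -0.24, the ribosomal RNAs at -0.80 and -0.85, and the transfer RNAs spread from -1.20 to 0.67.

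The 2 ribosomal RNAs, which form the cores of the small and large mitochondrial ribosomal subunits, were lower in KI hearts. mt-Rnr2 (GeneID 17725, chrM:1094-2675), the large-subunit RNA, ranged in WT from 4698 CPM through a median of 5719 CPM to 6593 CPM. In KI it ranged from 2466 CPM through 3092 CPM to 3815 CPM. Every KI library therefore lay below every WT library. Its log2 fold change was -0.85 (SE 0.11, edgeR adjusted p = 0.00159), a level 1.80-fold higher in WT. mt-Rnr1 (GeneID 17724, chrM:70-1024), the small-subunit RNA, ran from 1216 CPM through 1552 CPM to 2183 CPM in WT. The KI values were 813 CPM, 937 CPM and 1063 CPM for the lowest, median and highest library. These groups also did not overlap, and the log2 fold change was -0.80 (SE 0.13, edgeR adjusted p = 0.0050). Both kept an adjusted p under 0.05 with any single library left out. With KI 1, KI 2 and KI 6 alone against WT, mt-Rnr2 had a log2 fold change of -0.70 (edgeR adjusted p = 0.0347) and mt-Rnr1 one of -0.76 (edgeR adjusted p = 0.0772).

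**Figure D2:**
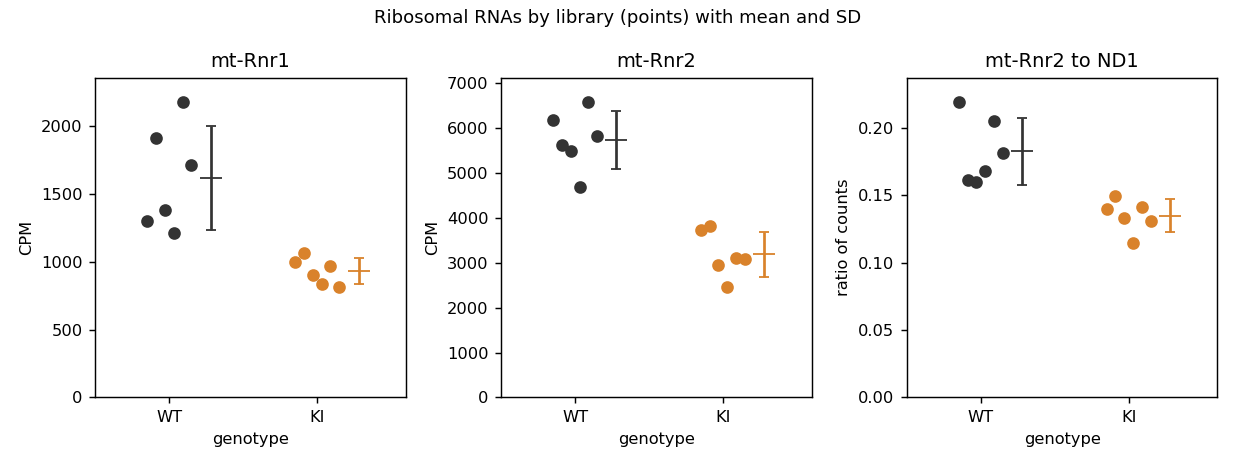
CPM of mt-Rnr1 and mt-Rnr2 and the ratio of mt-Rnr2 to ND1 counts in each library (points), with the mean and SD of each genotype beside them. The 6 KI points lie below the 6 WT points in every panel.

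Ratios within a library need no scaling between libraries, and 3 were tested by exact permutation, two-sided, with p-values adjusted over the 3. The ratio of mt-Rnr2 to ND1, the messenger RNA that follows it on the long transcript, was 0.160 to 0.220 in WT and 0.115 to 0.150 in KI. These ranges did not overlap, and the log2 ratio was lower in KI by a difference of -0.43 (exact permutation p = 0.00216, the smallest that 924 splits allow; adjusted p = 0.00649). With KI 1, KI 2 and KI 6 alone the difference was -0.37 (exact permutation adjusted p = 0.0714). No shift of the ribosomal RNAs against each other was detected: mt-Rnr2 over mt-Rnr1 was 2.93 to 4.73 in WT and 2.95 to 3.80 in KI. That log2 difference was -0.08 (exact permutation adjusted p = 0.537), and its sign rested on WT 1, without which it was 0.000377. Of the 2 neighbours on opposite strands, ND6 over ND5 was 0.00890 to 0.0150 in WT and 0.00773 to 0.0167 in KI, with a log2 difference of -0.26 (exact permutation adjusted p = 0.360).

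Complex I, the entry point of electrons from NADH, takes 7 subunits from mitochondrial DNA, and 4 of these messenger RNAs passed the test, all lower in KI. ND1, at chrM:2751-3707, ranged from 27916 CPM through 32118 CPM to 34838 CPM in WT and from 21539 CPM through 22846 CPM to 26566 CPM in KI. The groups did not overlap, and the log2 fold change was -0.42 (SE 0.08, edgeR adjusted p = 0.0080). ND2, at chrM:3914-4951, ranged from 21906 CPM through 24180 CPM to 27557 CPM in WT and from 14336 CPM through 16434 CPM to 20429 CPM in KI. Here too every KI heart was below every WT heart, with a log2 fold change of -0.51 (SE 0.10, edgeR adjusted p = 0.0087). Both genes were past the threshold in all 12 fits that left out 1 library. ND4L, a small hydrophobic subunit, gave -0.32 (SE 0.09, edgeR adjusted p = 0.0342) without overlap of the groups, from 2673 CPM to 3573 CPM in WT and 1926 CPM to 2576 CPM in KI. It lost its call without any 1 of WT 2, WT 3, WT 6, KI 3, KI 4, KI 5 or KI 6, with a highest adjusted p of 0.0766 without WT 6.

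ND6 is the only messenger RNA of the opposite strand and encodes another complex I subunit, at chrM:13552-14070. It ranged from 293 CPM through 394 CPM to 466 CPM in WT and from 187 CPM through 257 CPM to 333 CPM in KI. The groups overlapped, since 3 KI hearts (KI 1, KI 2 and KI 6, at 302, 312 and 333 CPM) exceeded the lowest WT heart. The log2 fold change was -0.58 (SE 0.17, edgeR adjusted p = 0.0486), the largest fall among the 13 messenger RNAs and the called one nearest the threshold. It missed the threshold without any 1 of WT 2, WT 3, WT 5, WT 6, KI 3, KI 4 or KI 5, with an adjusted p of 0.108 without WT 6. It also missed it under each of the 4 other scalings (edgeR adjusted p of 0.0513 to 0.0603) and with no filter on low counts (0.0546), and passed in 7 of 14 alternatives other than leaving out 1 library. The remaining complex I genes were not past the threshold: ND4 gave -0.32 (edgeR adjusted p = 0.0540), ND5 gave -0.35 (edgeR adjusted p = 0.136) and ND3 gave -0.24 (edgeR adjusted p = 0.134).

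Complex IV, which passes electrons to oxygen, has its 3 catalytic and core subunits encoded here, and all 3 messenger RNAs were lower in KI. COX1, at chrM:5328-6872, which binds the site of oxygen reduction, ranged from 108646 CPM through 126686 CPM to 141223 CPM in WT. In KI it ranged from 94291 CPM through 98301 CPM to 104999 CPM. The groups were separate by a narrow margin, and the log2 fold change was -0.33 (SE 0.08, edgeR adjusted p = 0.0213). COX3, at chrM:8607-9390, ranged from 25507 CPM through 29362 CPM to 32949 CPM in WT and from 20539 CPM through 22282 CPM to 24566 CPM in KI. Its log2 fold change was -0.37 (SE 0.08, edgeR adjusted p = 0.0173), again without overlap. COX2, which receives electrons from cytochrome c, gave -0.35 (SE 0.08, edgeR adjusted p = 0.0208), from 17827 CPM to 24198 CPM in WT and 15658 CPM to 17373 CPM in KI. COX1 and COX2 missed the threshold without any 1 of WT 2, WT 5 or WT 6, with highest adjusted p-values of 0.0584 and 0.0567 without WT 2.

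Complex V, the ATP synthase, has 2 membrane subunits encoded on this chromosome, and both messenger RNAs were lower in KI. ATP6, at chrM:7927-8607, part of the proton channel, ranged from 22292 CPM through 24869 CPM to 29634 CPM in WT and from 16704 CPM through 18590 CPM to 21820 CPM in KI. The groups did not overlap, and the log2 fold change was -0.42 (SE 0.09, edgeR adjusted p = 0.0173). ATP8, whose 204 bases include the 43 shown above that are shared with ATP6, gave -0.51 (SE 0.14, edgeR adjusted p = 0.0366). Its groups overlapped, from 2171 CPM to 3339 CPM in WT and 1494 CPM to 2525 CPM in KI, and the call was lost without any 1 of WT 2, WT 3, WT 5, WT 6, KI 3, KI 4 or KI 5, with a highest adjusted p of 0.0849. CYTB, the only complex III subunit encoded here, ranged from 44272 CPM to 64939 CPM in WT and from 39556 CPM to 48612 CPM in KI. It was not past the threshold at -0.24 (SE 0.09, edgeR adjusted p = 0.122).

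Per length of gene, the order of levels was headed by COX1, at 80702 CPM per kb (SD 8433, n = 6) in WT and 64080 CPM per kb (SD 2874, n = 6) in KI. COX1 was the highest of the 37 genes in all 12 libraries. CYTB followed in WT at 45634 CPM per kb, then ATP6 at 37047, COX3 at 36871, ND1 at 32975, COX2 at 30758, ND4 at 25329, ND2 at 23518, ND5 at 17614, ATP8 at 13940, ND4L at 9863 and ND3 at 5318 CPM per kb. The ribosomal RNAs stood far lower in these poly(A)-selected libraries, mt-Rnr2 at 3623 and mt-Rnr1 at 1697 CPM per kb. ND6 was the lowest messenger RNA in all 12 libraries, at 736 CPM per kb in WT and 492 CPM per kb in KI, and the WT mean of COX1 was 109.7 times its own. The WT ranges of neighbours in this order overlapped from CYTB down to ND4L. They were separate between COX1 and CYTB and at each step from ND4L through ND3, mt-Rnr2 and mt-Rnr1 to ND6. How far selection for poly(A) tails sets the levels of ribosomal RNAs, transfer RNAs and ND6 was not tested.

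**Figure D3:**
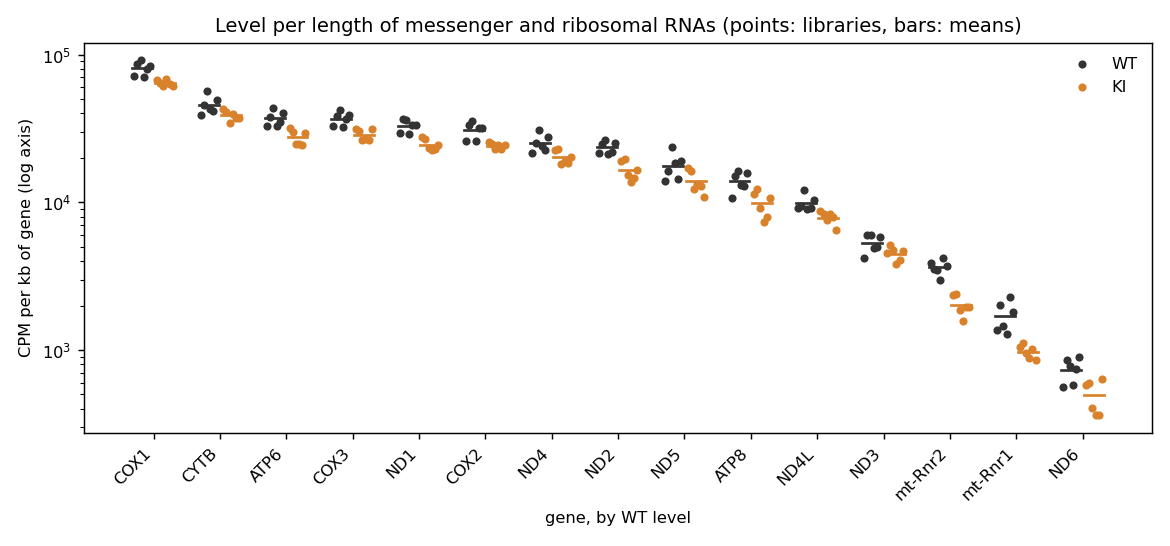
CPM per kb of gene on a log axis for the 13 messenger and 2 ribosomal RNAs, ordered by their WT mean, with each library as a point (dark WT, orange KI) and bars at the means. COX1 leads at 80702 CPM per kb in WT and ND6 is last at 736 CPM per kb.

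The composition of the messenger RNA pool moved little beside its total. Complex I genes supplied 32.0% to 34.9% of mitochondrial messenger RNA counts in WT and 30.5% to 34.9% in KI, and complex IV genes 43.8% to 47.7% and 43.4% to 48.1%. CYTB supplied 12.95% to 14.4% in WT and 14.2% to 15.2% in KI, and the complex V genes 7.18% to 7.50% and 6.22% to 7.64%. All 4 pairs of ranges overlapped, that of CYTB only through WT 3 at 14.4%. The complex V share was 6.22% to 6.76% in KI 3, KI 4 and KI 5, below every WT library. When every library was scaled to its total of mitochondrial messenger RNA, 6 members were lower and 4 higher by the same edgeR test. The background was then 0.333% of all genes lower and 56.1% higher, since nuclear genes were set against a total that is itself lower in KI. Among messenger RNAs this left ND2 lower at -0.17 (SE 0.06, edgeR adjusted p = 0.0204) and CYTB higher at 0.11 (SE 0.04, edgeR adjusted p = 0.0222). The other 11 lay between -0.23 for ND6 (edgeR adjusted p = 0.137) and 0.11 for ND3 (edgeR adjusted p = 0.194).

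Both ribosomal RNAs remained lower against the messenger RNA total, mt-Rnr1 at -0.46 (SE 0.13, edgeR adjusted p = 0.0090) and mt-Rnr2 at -0.52 (SE 0.10, edgeR adjusted p = 0.00213). So did 3 transfer RNAs of the long transcript: TrnI at -0.74 (edgeR adjusted p = 0.0101), TrnW at -0.40 (edgeR adjusted p = 0.00673) and TrnD at -0.89 (edgeR adjusted p = 0.0474). The transfer RNAs higher on this scale were TrnS1 at 1.03, TrnT at 0.59 and TrnP at 0.74, all with few counts (10 to 149 in any library). With KI 1, KI 2 and KI 6 alone, 1 member was lower and 1 higher on this scale. With KI 3, KI 4 and KI 5 alone 11 were lower and 2 higher. Both splits were chosen after the data were seen. The share of all genes was not taken for either split, and with all 12 libraries it was 0.333% lower and 56.1% higher.

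Transfer RNAs were the most uneven class. Counts over their rows do not separate mature transfer RNAs from transcripts not yet cut, and the part of each was not tested. The summed level of these rows was 557 to 815 CPM in WT and 324 to 499 CPM in KI. TrnI, TrnW, TrnL1, TrnM and TrnD had the most counts. Of the 22, 5 had too few counts to test (TrnF, TrnC, TrnY, TrnS2 and TrnL2, with at most 12 counts in any library). The 4 called lower all belong to the long transcript, of whose 14 transfer RNAs 11 were tested with a median log2 fold change of -0.52. From the opposite strand 6 of 8 were tested, none passed, and the median was 0.37. TrnS1, the serine transfer RNA with the largest positive value there, gave 0.67 (SE 0.25, edgeR adjusted p = 0.109) from only 10 to 26 counts per library. The strands were not compared by a test.

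TrnI, which shares 2 bases with ND1, ranged from 177 CPM through 225 CPM to 274 CPM in WT and from 54.6 CPM through 113 CPM to 161 CPM in KI. The groups did not overlap, and the log2 fold change of -1.06 (SE 0.24, edgeR adjusted p = 0.0188) was larger than that of ND1 itself at -0.42. TrnW, which shares 2 bases with ND2, ranged from 125 CPM through 143 CPM to 165 CPM in WT and from 67.3 CPM through 87.7 CPM to 99.1 CPM in KI. It too was separate between the genotypes, with a log2 fold change of -0.73 (SE 0.11, edgeR adjusted p = 0.00258), and both kept their calls with any single library left out. TrnL1, between mt-Rnr2 and ND1, gave -0.41 (SE 0.11, edgeR adjusted p = 0.0326), from 101 CPM to 175 CPM in WT and 84.5 CPM to 110.2 CPM in KI. TrnM gave -0.37 (SE 0.10, edgeR adjusted p = 0.0383), from 68.7 CPM to 105 CPM in WT and 53.3 CPM to 80.2 CPM in KI. Both of these pairs of ranges overlapped. TrnL1 lost its call without any 1 of WT 2, WT 6, KI 2, KI 3, KI 4 or KI 6 (highest adjusted p 0.0636), and TrnM kept its call in the fits without WT 4 and without KI 5 (highest adjusted p among the other 10 fits 0.0688).

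**Figure D4:**
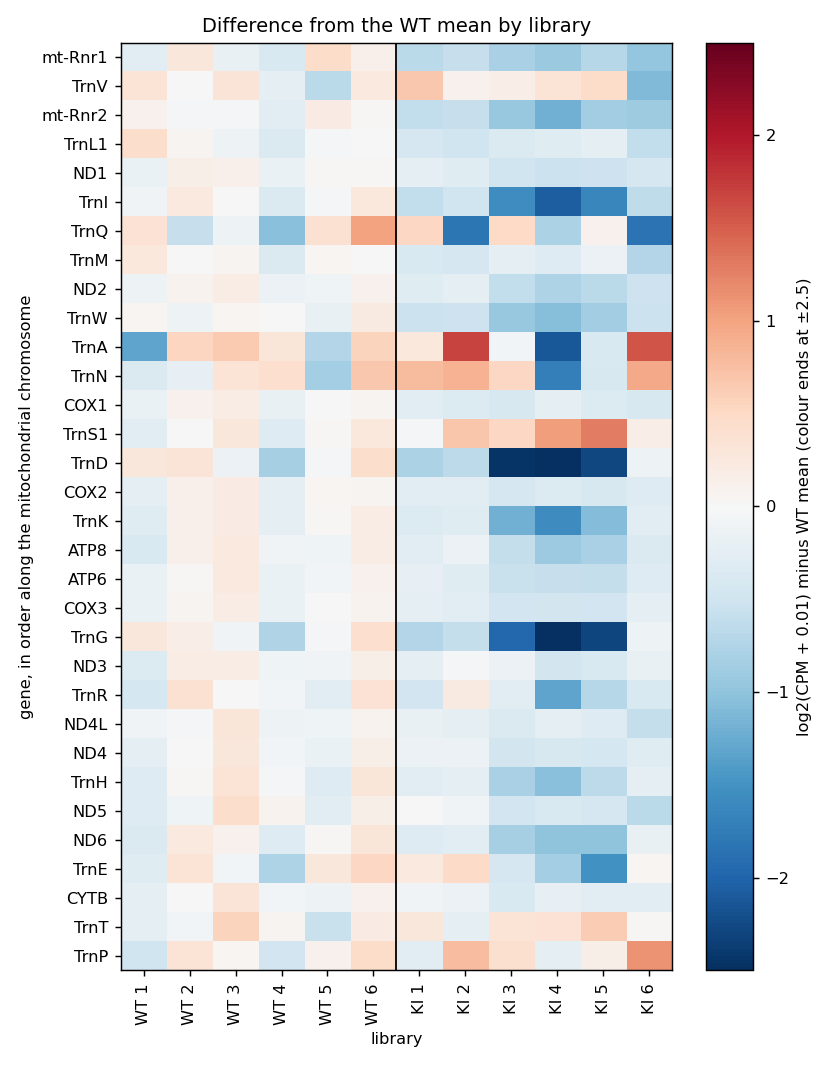
Difference of log2(CPM + 0.01) from the WT mean for the 32 tested genes (rows, chromosome order) in the 12 libraries (columns), from blue for lower to red for higher. The KI columns are pale blue for messenger RNAs, deeper for mt-Rnr1, mt-Rnr2, TrnI and TrnW, and darkest for TrnD and TrnG in KI 3, KI 4 and KI 5.

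The KI hearts were not alike in TrnI, TrnD and TrnG. TrnD, which separates COX1 from COX2 together with TrnS1, was at 11.3 to 13.3 CPM in KI 3, KI 4 and KI 5, at 37.6, 41.1 and 59.1 CPM in KI 1, KI 2 and KI 6, and at 36.2 to 87.8 CPM in WT. TrnG, between COX3 and ND3, was at 5.87 to 9.86 CPM in the first 3, at 23.1, 25.3 and 35.1 CPM in the others and at 22.9 to 51.4 CPM in WT. TrnI stood at 54.6 to 78.1 CPM in the first 3 and at 148, 161 and 147 CPM in the others. In all 3 genes the hearts KI 3, KI 4 and KI 5 lay below the other 9. This order was not particular to them. It also held for TrnW, at 67.3 to 77.8 CPM in KI 3, KI 4 and KI 5 against 97.7 CPM or more elsewhere. The same was true of ND1, ND2, COX2, COX3, ATP6, ATP8, ND4, ND6, TrnK and TrnH. The share of all genes with this order was not taken. Over all KI hearts TrnD gave -1.20 (SE 0.39, edgeR adjusted p = 0.0718) and TrnG -1.14 (SE 0.38, edgeR adjusted p = 0.0741). Among the fits that left out 1 library, both passed only without KI 6, at adjusted p-values of 0.0279 and 0.0304.

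The grouping of KI 3, KI 4 and KI 5 follows their titles, but a direct edgeR test of them against KI 1, KI 2 and KI 6 was added after the values just given had been seen, so it describes that pattern and is no independent support for it. It called 3 members lower and 0 higher, beside 0.474% of all genes lower and 0.333% higher. They were TrnI at -1.15 (SE 0.16, edgeR adjusted p = 0.0186), TrnD at -1.92 (SE 0.28, edgeR adjusted p = 0.0186) and TrnG at -1.83 (SE 0.27, edgeR adjusted p = 0.0186). Their neighbours did not pass this test: ND1 gave -0.20, ND2 -0.33, COX1 0.01, COX2 -0.09, COX3 -0.23 and ND3 -0.18. Per 1000 mitochondrial messenger RNA counts, TrnD was 0.0380 to 0.0467 in KI 3, KI 4 and KI 5 and 0.104 to 0.236 in WT. TrnG was 0.0198 to 0.0354 against 0.0660 to 0.140, and TrnI 0.184 to 0.280 against 0.506 to 0.680. TrnW had the same order, less steeply, at 0.227 to 0.272 in KI 3, KI 4 and KI 5. It was 0.295 to 0.334 in KI 1, KI 2 and KI 6 and 0.323 to 0.440 in WT. In the direct test TrnW gave -0.43 (edgeR adjusted p = 0.0538). TrnL1 and TrnM did not share this pattern. On the same measure TrnL1 was 0.355 to 0.386 in KI 3, KI 4 and KI 5 and 0.286 to 0.290 in KI 1, KI 2 and KI 6, and TrnM was 0.237 to 0.281 and 0.182 to 0.206. The 3 hearts share the age tag and the lowest totals of counts. Their ventricular marker sums were 45917 to 51374 CPM. In KI 1, KI 2 and KI 6 the sums were 49056 to 56078 CPM, and in WT 51093 to 57918 CPM, so the ranges overlapped. The part of tag, depth and marker sums in this difference was not tested.

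**Figure D5:**
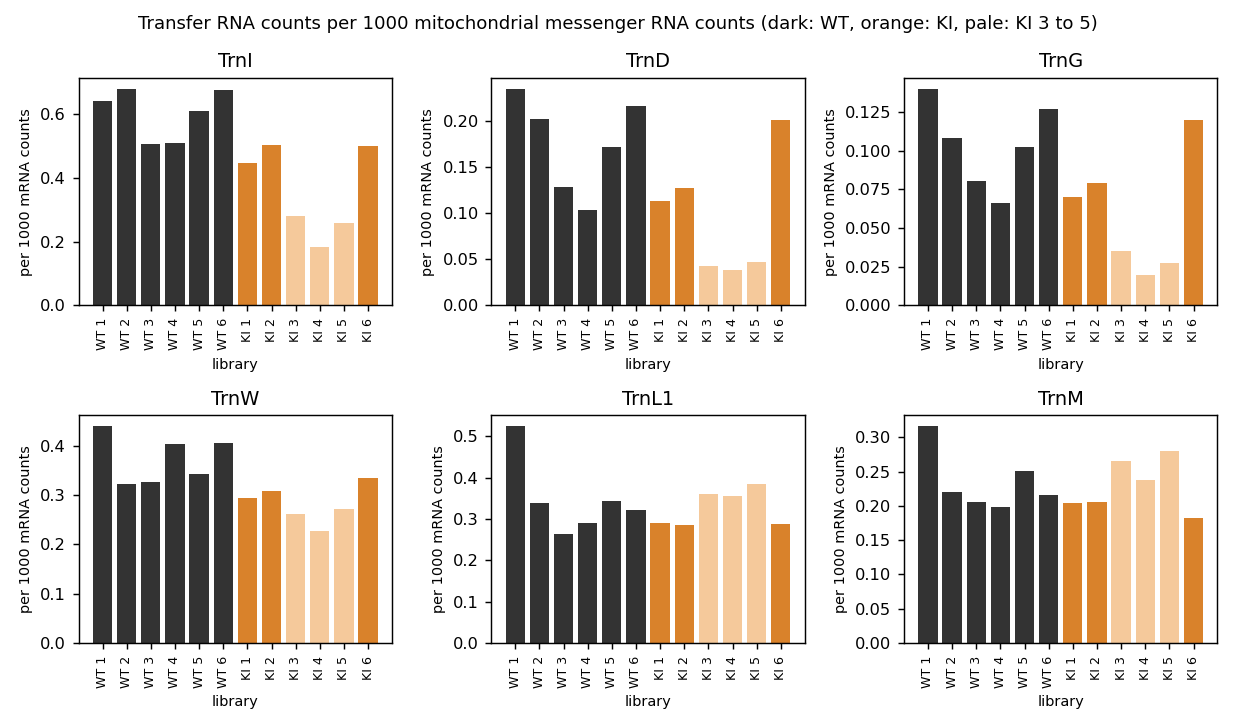
Counts of 6 transfer RNAs per 1000 mitochondrial messenger RNA counts in each library (bars; dark WT, orange KI 1, KI 2 and KI 6, pale KI 3, KI 4 and KI 5). TrnI, TrnD, TrnG and TrnW are lowest in the 3 pale bars, and TrnL1 and TrnM are not.

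Nuclear genes that serve this chromosome were read in lists, with TMM scaling first. Of 10 genes for its transcription, 1 was lower, Mterf2, a regulator of the termination-factor family, at -0.26 (edgeR adjusted p = 0.0296), and Mrpl12, the most abundant of the list, which is reported to bind the mitochondrial RNA polymerase, gave -0.02 (edgeR adjusted p = 0.917). Of 18 genes for replication and upkeep of mitochondrial DNA, 3 were lower: Mgme1, an exonuclease, at -0.39, Twnk, the replicative helicase, at -0.36, and Mpv17, an inner-membrane protein, at -0.24. Of 23 genes for RNA processing, stability and decay, the RNA-binding proteins Fastkd1, Fastkd2 and Fastkd3 were lower, at -0.40, -0.22 and -0.23. None of these 3 lists held a gene called higher, and their medians were -0.08, -0.10 and -0.07. Of all genes tested, 4.34% were called lower and 4.41% higher, with a median of 0.01. When libraries were scaled by their totals the medians were 0.07, 0.05 and 0.08, below the 0.16 of all genes tested. The calls became 0 lower and 0 higher for transcription, and 0 lower and 1 higher for replication and upkeep. For RNA processing they became 1 lower and 3 higher. Of all genes, 1.22% were then called lower and 18.8% higher.

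Of 22 enzymes that modify mitochondrial ribosomal and transfer RNA, 2 were lower, Osgepl1, which modifies transfer RNAs that read codons starting with A, at -0.30, and Rpusd4, a pseudouridine synthase, at -0.21. Of 22 genes that charge mitochondrial transfer RNAs, 5 were lower, among them Mars2, the methionine enzyme, at -0.32, Ears2, the glutamate enzyme, at -0.23, Cars2, the cysteine enzyme, at -0.21, and Gatb, a subunit of the amidotransferase, at -0.19. Lars2, the leucine enzyme, named after its values were seen, gave -0.91 (SE 0.33, edgeR adjusted p = 0.0936), with 487 CPM in WT 5 and 77.3 to 185 CPM in the other 11 libraries. Of 72 nuclear subunits of complexes I, III, IV and V, 6 were lower, among them Ndufs1, the largest complex I subunit, at -0.28, Ndufs4, another of complex I, at -0.23, and the ATP synthase subunits Atp5j and Atp5pb at -0.20 and -0.19. With TMM none of these 3 lists held a gene called higher, and their medians were -0.08, -0.11 and -0.08. Of all genes, 4.34% were lower and 4.41% higher with TMM. With scaling by totals the medians were 0.07, 0.04 and 0.07, again below the 0.16 of all genes. The calls were then 1 lower and 2 higher for modification, and 0 lower and 2 higher for charging. For the respiratory subunits they were 1 lower and 6 higher, beside 1.22% lower and 18.8% higher of all genes. The median of the 13 mitochondrial messenger RNAs was -0.35 with TMM and -0.20 with totals, and the difference between the genomes was not tested.

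Nuclear RNAs that usually lack a poly(A) tail were examined beside the mitochondrial RNAs that lack one. Of 25 names listed, among them older and newer names of the same histone genes, 10 were in the gene table. Of these, 7 had enough counts to test in these poly(A)-selected libraries. Whether the selection differed between the groups was not tested. Of 7 tested, 0 passed the edgeR threshold in either direction with TMM, and their median was -0.02. An unadjusted p under 0.05 was found for 3 of the 7, beside 4023 of all 15602 genes tested. With scaling by library totals 3 were higher, among them H1f2, and the median was 0.13. Of all genes, 18.8% were then higher, with a median of 0.16. The summed level of the 10 in the table was 52.5 to 71.2 CPM in WT and 62.2 to 70.6 CPM in KI, so the groups overlapped. The most abundant were the histone genes H2bc4 at -0.02 (edgeR adjusted p = 0.932) and H1f2 at 0.23 (edgeR adjusted p = 0.113; 0.38 and 0.0081 with library totals).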

How the data were processed

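Expected counts per gene, not normalized, were deposited by the authors for 6 WT and 6 KI hearts. Per the file headers, featureCounts 1.6.4 counted reads of the reverse strand over whole gene spans of the RefSeq annotation of GRCm38.p6, and split reads with several alignments or several overlapping genes as fractions. Per the submitters' processing notes, cutadapt 2.5 and STAR 2.7.2b prepared and aligned the reads. Because of that splitting, overlapping mitochondrial genes and nuclear copies of them can share reads.

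The counts were rounded to whole numbers and all genes were fitted together with edgeR 4.0.16 in R 4.3.3: filterByExpr (minimum count 10, minimum total 15), TMM scaling, the quasi-likelihood test of KI against WT without covariates, and Benjamini-Hochberg adjustment over 15602 genes at 0.05. Fold changes are log2, KI over WT, with standard errors. A second fit took the sum of the 13 mitochondrial messenger RNAs as library size. Single ratios had two-sided exact permutation tests over the 12 libraries. Alternatives used DESeq2 1.42.0, limma 3.58.1 (voom), sva 3.50.0, other scalings and filters, a test against a fold of 1.2, and each library left out. The fits were tested on simulated data, and figures were drawn with matplotlib 3.10.9. The anticodon in a printed transfer RNA is the triplet for its amino acid whose flanks pair best.

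The titles give each library its own last number. Nothing states what that number stands for or how the hearts were collected, so p-values measure the spread between these samples. Pairs of libraries of a group differed by a chi-square of 6.80 to 67.8 per degree of freedom, so no library was counted as a repeat of another. Equal replicate numbers did not pair the libraries, and the closing section gives the check. Depth was 27.9 M to 44.6 M counts, and intervals from counting error alone were not used.

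The members and the gene lists were chosen with earlier results of these data known. Every messenger and ribosomal RNA member was named, along with the transfer RNAs that passed a threshold, had the most counts or overlap a neighbour. Of each nuclear list, up to 4 genes with the smallest adjusted p past the threshold were named, and where fewer than 2 passed, the most abundant made up 2.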

Additional observations from a re-analysis of the deposited data

Results flagged for a closer look

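The ratio of ND6 to ND5 counts in KI 6 was 0.0167, apart from the other 5 KI libraries, of which the nearest stood at 0.0104. The gap took up 0.701 of the range of the group, more than Dixon's test allows for 6 values. It was the only such library among 82 groups of values examined, and chance alone would mark about 1 in 20. KI 6 is also the heart with Myl4 at 223 CPM and Ucp1 at 17.8 CPM, and the part of these in its ratio was not tested.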

How the results depend on the processing

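The 15 members lower in KI numbered 11 to 21 under 4 other scalings, 2 other filters, unrounded counts (an alternative added after the data were seen), DESeq2, limma voom and 1 surrogate variable. They numbered 3 in a test against a fold of 1.2, 2 with KI 1, KI 2 and KI 6 alone, 16 with KI 3, KI 4 and KI 5 alone, and 8 to 16 with 1 library left out. No member was higher except 1 (TrnS1) with scaling by library totals and 1 with KI 3, KI 4 and KI 5 alone, and 0 to 0 were higher with 1 library left out. With the replicate number as a replicate block, 8 were lower. The share of all genes called lower also moved between fits, from 4.34% in the main fit to 0.138% with KI 1, KI 2 and KI 6 alone. It was not taken for the block, the test against a fold of 1.2 or the fits with 1 library left out. Nor was it taken for the surrogate variable, the filters, unrounded counts or scalings other than library totals. Those counts are therefore not set against all genes. Deviations of equally numbered libraries correlated at -0.278 to 0.0354 over 6 pairs, 0 of them over 0.1, and 0 pairs matched their own number best, so the numbers only name libraries.

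Against the mitochondrial messenger RNA total, 6 lower and 4 higher members became 5 to 8 and 3 to 6 with 1 library left out, and 7 and 4 with the block. With KI 1, KI 2 and KI 6 alone they were 1 and 1, and with KI 3, KI 4 and KI 5 alone 11 and 2. The share of all genes called in these fits was not taken. The log2 difference of mt-Rnr2 to ND1 (-0.43) ran from -0.47 to -0.37 with 1 library left out (exact permutation adjusted p 0.00649 to 0.0130). It was -0.37 with KI 1, KI 2 and KI 6 alone (adjusted p = 0.0714, exact) and -0.43 with the block (exact sign-flip adjusted p = 0.0938, the smallest that 6 pairs and 3 ratios allow, so this test could not pass the threshold). That of mt-Rnr2 to mt-Rnr1 ran from -0.14 to 0.000377, and was 0.042 with KI 1, KI 2 and KI 6 alone. That of ND6 to ND5 ran from -0.41 (without KI 6) to -0.19, and was 0.00052 with KI 1, KI 2 and KI 6 alone. Among transfer RNAs not called, TrnA turned to -0.21 with voom and -0.86 with KI 3, KI 4 and KI 5 alone, TrnN to -0.044 and -0.43, and TrnE to 0.21 with KI 1, KI 2 and KI 6 alone. The cause of these changes was not tested. Leaving out KI libraries also leaves fewer samples. Depth limits the 5 untested transfer RNAs and those of the opposite strand, with at most 202 counts in a library.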
